A study of Oncorhynchus mykiss with 525 samples.

Results

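The wells described here held RTgill-W1 cells exposed for 24 h to the highest concentration of the pesticide that the labels code dip. They are the 3 wells labelled dip conc 1, of 525 labelled wells in the series, and each was set against the 15 solvent (DMSO) wells of the same 3 plates in the same deposited table. The concentration was 57.64 at conc 1, 19.21 at conc 2 and 6.40 at conc 3, in a unit that the labels do not give, and the dilution series went on in 3-fold steps to conc 8. The study used DMSO or water as carrier, and the labels do not say which of them dip had. Dip is known here only by its code, and nothing on its identity is given. Wells of the further coded pesticides dic (41.79) and mbz (38.14), each at its own conc 1, served as another comparison.

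RTgill-W1 is an epithelial cell line from the gill of rainbow trout, the organ through which fish exchange gases and salts with the water. It is used in a standard guideline test of acute toxicity to fish cells in place of live animals. A transcriptomic point of departure, the quantity the study was designed to derive, is the concentration at which gene expression starts to move away from the control. How sharply genes change between neighbouring steps of a dilution series therefore bears on where such a point is set.

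Each conc 1 well came from another plate and another cell passage, which the submitters count as biological replicates. All 3 lay in plate row H, since concentration follows the plate row, so position on the plate and concentration cannot be told apart. The dip wells were pooled into libraries 17, 21 and 25 and the solvent wells of the same plates into libraries 14, 18 and 22, so a difference between libraries is part of every comparison with solvent. The comparisons between dip wells draw both groups from the same libraries, but the main fit did not pair wells by library. The 3 conc 1 wells held 251366, 456040 and 191644 counts on plates 1, 2 and 3, or 67.3% to 113% of the median of the other wells of their library. The 15 solvent wells held 158258 to 506267 counts with a median of 299140. Conc 2 wells held 183021 to 405275 counts and conc 3 wells 347996 to 493187. No dip or solvent well was dropped for a low total.

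The files list 44260 Ensembl gene IDs and do not pair them with names, and 0 of these IDs matched the reference table of gene names. Genes are therefore described by their counts, abundance and course. The labelled cell type could not be checked against its defining markers, and 4 IDs are named by the rule given with the processing. A count measures the RNA of a whole well, so fewer cells and less RNA per cell cannot be told apart.

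At conc 1, expression differed from solvent for 1706 of 4436 tested genes (38.5%; edgeR's quasi-likelihood test, Benjamini-Hochberg adjusted p below 0.05). Of these, 762 rose, with a median log2 fold change of 1.19, and 944 fell, with a median of -1.54. With edgeR's TMM scaling, the falls were the larger changes. By that scaling, 268 genes fell at least 4-fold and 66 at least 8-fold, while 45 rose at least 4-fold and 2 at least 8-fold. At least 2-fold changes made up 526 of the rises and 766 of the falls. The split between directions depended on the scaling, which also shifts the sizes. Genes per size of change were counted with TMM only. Scaling by library totals moved the fold changes up by a median of 0.30 on the log2 scale and gave 1138 higher and 662 lower genes, and DESeq2's size factors moved them by 0.13 and gave 928 higher and 837 lower. Without replicate 2, the count was 1047 genes, of which 422 rose and 625 fell.

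Many genes had no overlap between the conc 1 and the solvent wells. In CPM, the counts scaled to the same total in each well, all 3 conc 1 wells lay above all 15 solvent wells for 536 genes (12.1% of the tested genes) and below all of them for 340 (7.66%). The genes called as risen supplied 488 of these 536, and those called as fallen all 340. For conc 2 the same counts were 18 genes above (0.406%) and 3 below (0.0676%), and for conc 3 they were 31 above (0.699%) and 0 below (0%). CPM carry no TMM scaling, and library totals moved conc 1 upward by a median of 0.30 on the log2 scale. A gene at 0 in any solvent well cannot lie below all of them, and the filter on low counts admits genes through high conc 1 wells. The counts above and below are therefore not comparable with each other.

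The ID that fell most clearly, ENSOMYG00000046635, had 139, 265 and 230 CPM in the conc 1 wells of plates 1, 2 and 3, against a lowest, median and highest value of 1082, 1448 and 2101 CPM in the solvent wells. It had 1443, 1493 and 1645 CPM at conc 2 and 1725, 1630 and 1971 CPM at conc 3. All conc 1 wells lay far below every other well, and the wells of conc 2 and conc 3 lay within the solvent range. Its log2 fold change at conc 1 was -3.08 (SE 0.18, adjusted p = 1.48e-20 in edgeR), and -2.95 (SE 0.20, adjusted p = 5.10e-18 in edgeR) against conc 2.

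The other named ID that fell, ENSOMYG00000011481, was among the more abundant ones. It had 859, 943 and 1059 CPM in the conc 1 wells, against 4568, 5198 and 6163 CPM as lowest, median and highest value in the solvent wells. At conc 2 it had 4118, 4994 and 6617 CPM, and at conc 3 5379, 4747 and 7049 CPM. The wells of plate 3 were the highest at both of these concentrations and lay above the solvent range, the conc 2 well of plate 1 lay below it, and all conc 1 wells lay far below all of them. The log2 fold change at conc 1 was -2.73 (SE 0.16, adjusted p = 3.09e-20 in edgeR).

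Of the IDs that rose, ENSOMYG00000019426 had 1448, 1717 and 1821 CPM in the conc 1 wells, against 280, 357 and 511 CPM as lowest, median and highest solvent value. At conc 2 it had 497, 326 and 426 CPM, within the solvent range. Its log2 fold change was 1.90 (SE 0.12, adjusted p = 6.71e-20 in edgeR) at conc 1 and -0.01 (SE 0.14) at conc 2.

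ENSOMYG00000016388 had 1297, 1373 and 1409 CPM in the conc 1 wells, against 237, 341 and 404 CPM as lowest, median and highest solvent value. At conc 2 it had 401, 380 and 421 CPM, so 1 of these wells lay above the highest solvent well. Its log2 fold change was 1.81 (SE 0.12, adjusted p = 6.53e-19 in edgeR) at conc 1 and 0.16 (SE 0.14) at conc 2. Of the 4436 tested genes, 351 risen and 320 fallen ones met the same rule. The 4 named IDs were taken among them for the smallest p-values, so they need not be typical of the others.

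**Figure D1:**
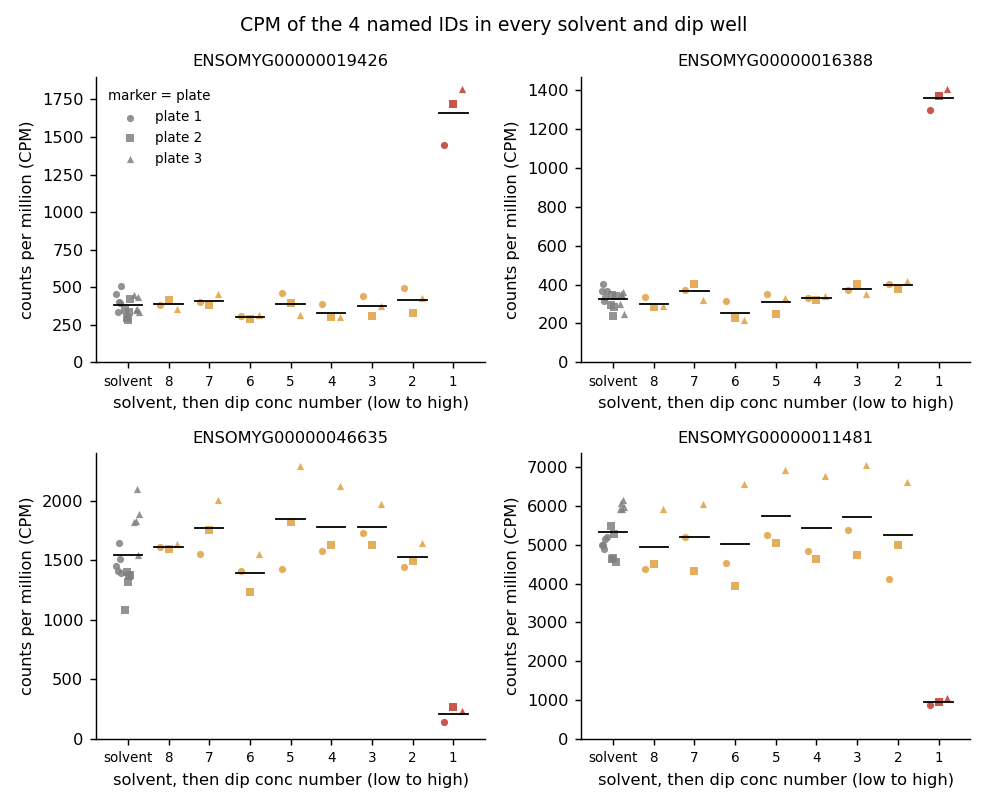
CPM (counts scaled to the well's total, linear axis from 0) of the 4 named IDs in each solvent well and each dip well, with solvent at the left and dip concentrations from conc 8 (lowest) to conc 1 (highest); marker shape is the plate and black lines are group means. The conc 1 wells stand apart from all others for each ID, and the wells of conc 8 to conc 2 lie near the solvent wells.

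For the genes called at conc 1, taken as groups, the change lay in the last 3-fold step of the 8 concentrations measured. From conc 8 to conc 1, the median log2 fold change against solvent of the 762 genes that rose at conc 1 was 0.03, -0.05, -0.11, -0.11, -0.06, -0.10, 0.07 and 1.19. For the 944 genes that fell at conc 1 it was -0.20, -0.00, -0.05, 0.07, 0.05, 0.04, -0.08 and -1.54. These comparisons share the solvent wells. The conc 1 wells chose these genes, which partly fixes the medians at conc 1. Genes that changed only at a lower concentration are in neither group. At conc 2, the lower and upper quartiles were -0.16 and 0.34 for the risen genes and -0.27 and 0.11 for the fallen genes. At conc 1 they were 0.94 to 1.54 for the risen and -2.12 to -1.10 for the fallen genes.

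**Figure D2:**
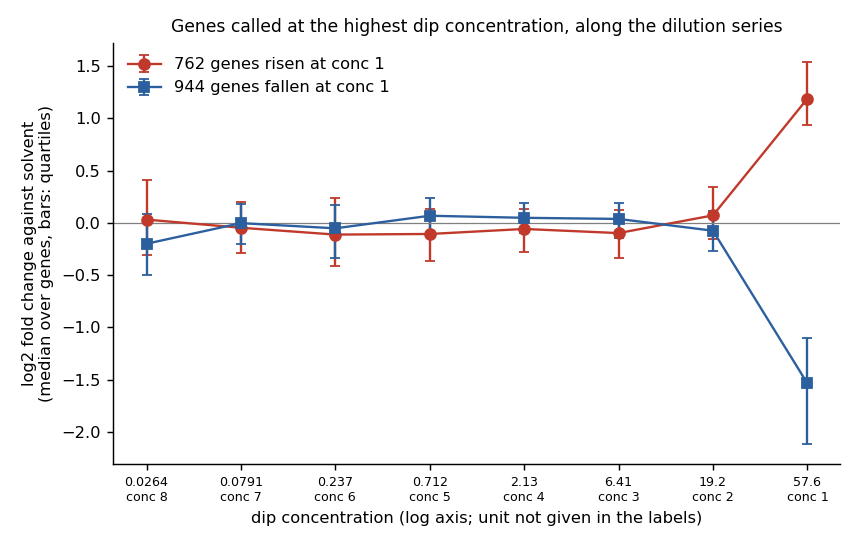
Median log2 fold change against solvent (points) with lower and upper quartile (bars) of the 762 genes risen and the 944 genes fallen at conc 1, over the 8 dip concentrations on a log axis. Both lines stay between -0.20 and 0.07 up to conc 2 and separate at conc 1, the concentration that chose the genes.

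The numbers of genes called at the lower concentrations were small. At conc 2, edgeR called 4 genes (0.0902%), all higher, and 21 with the plate as a replicate block, of which 14 were higher and 7 lower. At conc 3 it called 10 genes (0.225%), all higher, and 19 with the block, of which 14 were higher and 5 lower. At conc 4, conc 5 and conc 7 it called 2 (0.0451%), 7 (0.158%) and 2 genes (0.0451%). At conc 6 it called 0 (0%), with 375 genes at an unadjusted p under 0.05, and no other tool was run there. Conc 8, the lowest concentration, had 30 genes (0.676%), more than any other below conc 1, and its wells held the fewest counts, 104003 to 126822. The part of depth in that count was not tested.

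The 4 genes called at conc 2 did not follow 1 course. The first had 48.2 to 146 CPM in the conc 1 wells, 578 to 831 CPM in the conc 2 wells and 215 to 419 CPM in the solvent wells. It was called in opposite directions at conc 2 and conc 1, and its log2 fold change against solvent was 0.66 at conc 3 and 1.06 at conc 2. The second likewise had log2 fold changes of 1.42 at conc 2 and -1.66 at conc 1, both past the threshold in edgeR. The next was already near its conc 1 level at conc 2, with log2 fold changes of 1.18 at conc 2 and 1.26 at conc 1. The last was higher at conc 2, by 1.85 on the log2 scale, and was 0.35 at conc 1, where it missed the threshold (adjusted p = 0.486 in edgeR). Of the 10 genes called at conc 3, 0 were called at conc 2, where their median log2 fold change was 0.05, against 1.07 at conc 3. The conc 3 wells chose these genes, which partly fixes the 1.07. At conc 1, 7 of the 10 were called, where 38.5% of all 4436 tested genes were. Whether the 10 exceed that share was not tested. Their log2 fold changes at conc 1 ran from -2.45 to 2.31.

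The step between neighbouring concentrations was also tested between dip wells of the same libraries, without the solvent wells as reference. The fit had no term for plate or library, and the solvent wells entered its filter, scaling and spread. Conc 1 against conc 2 gave 1025 of 4436 genes (23.1%) in edgeR's quasi-likelihood test. Of these, 365 were higher and 660 lower at conc 1. With the plate as a replicate block, this step gave 1165 genes, of which 445 were higher and 720 lower. Conc 2 against conc 3 gave 2 genes (0.0451%), both lower at conc 2, with 242 genes at an unadjusted p under 0.05, and 12 genes with the plate as a replicate block, of which 7 were higher and 5 lower. With TMM scaling, the 1025 genes of the upper step became 587 without replicate 2 and 644 without replicate 3. Library totals gave 452 higher and 480 lower genes for that step. For the lower step, edgeR called 0 genes without replicate 3, with 272 at an unadjusted p under 0.05, and DESeq2 on all replicates called 3. The 762 risen and 944 fallen genes had median log2 fold changes of 1.11 and -1.44 over the upper step, and of 0.16 and -0.11 over the lower one. The same conc 1 wells chose these genes, so the size and direction of these medians over the upper step are partly fixed by that choice.

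Wells of dic and mbz, further pesticides coded by the labels, shared library and plate row H with the dip wells at their own conc 1. They were exposed wells too, at 41.79 for dic and 38.14 for mbz. Any response of their own is part of this comparison, and it was not tested against solvent. Against these 6 wells, dip conc 1 differed for 1413 of 3933 tested genes (35.9%), of which 661 were higher and 752 lower in dip (edgeR). The count was 808 without replicate 2. Of the genes that changed against solvent, 715 risen ones had a median log2 fold change of 1.24 against dic and mbz, and 896 fallen ones had -1.41. Here too the conc 1 wells had chosen the genes, which partly fixes these medians. The wells' totals differed, with 191644 to 456040 counts for dip, 518040 to 786151 for dic and 135802 to 176699 for mbz.

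Whether the same genes changed on every plate was read in wells that had not chosen them. Genes were called with 1 plate left out, and their log2 ratio to the solvent wells was then taken on that plate. Without plate 1, 570 genes rose and 845 fell, and in the conc 1 well of plate 1 94.2% of them were higher and 95.7% lower than in its solvent wells. On plate 2 these shares were 96.7% of 422 risen and 97.4% of 625 fallen genes, and on plate 3 95.6% of 504 and 95.9% of 795. Over all tested genes, 49.0%, 53.3% and 51.2% were higher on plates 1, 2 and 3. The median log2 ratio on the plate left out was 0.85, 1.07 and 1.16 for the risen genes and -1.15, -1.18 and -1.25 for the fallen ones.

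In the conc 2 wells of the plates left out, 57.9%, 54.7% and 52.2% of the same risen genes were higher than in solvent, and 59.4%, 48.6% and 51.1% of the same fallen genes were lower. Over all tested genes, 50.3%, 54.7% and 50.1% were higher, so the share of risen genes on plate 2 was that of all genes. The conc 2 well of plate 1 thus leaned in the direction of conc 1 for both groups, with median log2 ratios of 0.09 and -0.14. In the conc 3 wells, 42.3%, 43.1% and 38.9% of the risen genes were higher and 43.1%, 38.7% and 39.4% of the fallen genes lower, while 53.1%, 54.2% and 51.5% of all tested genes were higher. Both groups thus leaned away from the direction of conc 1 in the conc 3 wells of all 3 plates. Single solvent wells were set against the others of their plate over the 762 risen and 944 fallen genes. Their median log2 ratios were -0.06 to 0.10 and -0.11 to 0.09. On the same genes, conc 3 wells had -0.07 to -0.02 and 0.06 to 0.08. The conc 2 well of plate 1 had 0.12 and -0.14. Whether these leans exceed the spread between solvent wells was not tested.

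Across the 4436 tested genes, the log2 ratios to the solvent wells of the same plate correlated between plates at conc 1, with Pearson's r of 0.675 for plates 1 and 2, 0.626 for plates 1 and 3 and 0.693 for plates 2 and 3. At conc 2, r was 0.054 to 0.063, and at conc 3 0.078 to 0.113. Genes are not independent replicates, and all 3 ratios compare dip libraries with solvent libraries. The filter on low counts also admits genes through high conc 1 wells alone, and such genes are high on all 3 plates. It can do the same through the wells of another concentration. How much this adds to r was not tested.

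**Figure D3:**
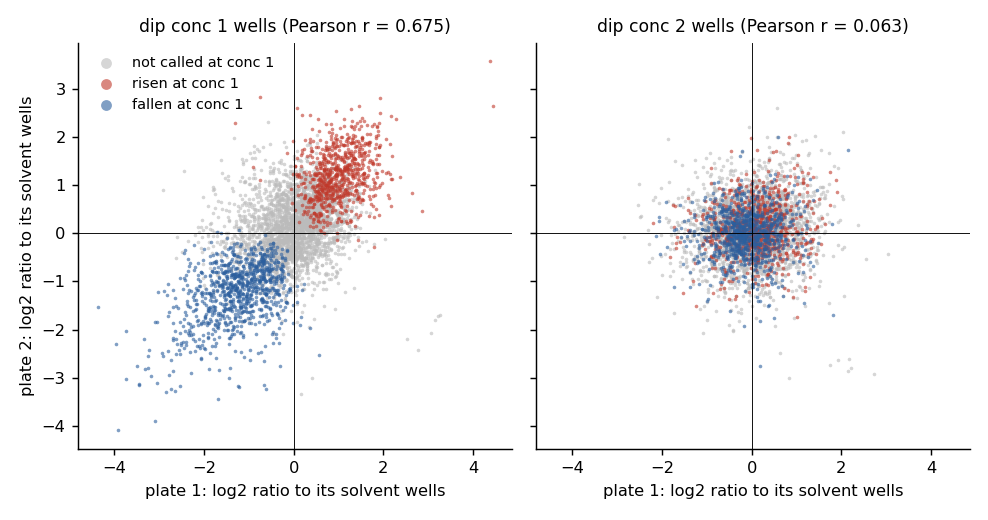
Log2 ratio of each tested gene to the solvent wells of its plate, on plate 1 (horizontal) and plate 2 (vertical), at conc 1 (left) and conc 2 (right), coloured by the call at conc 1. The cloud runs along the diagonal at conc 1 (r = 0.675) and is round at conc 2 (r = 0.063).

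Counted per well, 29.6%, 31.3% and 38.7% of the tested genes were at least 2-fold from the solvent wells of the plate in the conc 1 wells of plates 1, 2 and 3. Single solvent wells, set against the other solvent wells of their plate, had 5.48% to 18.5% with a median of 9.40%. Conc 2 wells had 13.2%, 8.25% and 15.3%, within that range, and conc 3 wells 5.93%, 5.28% and 8.18%. Conc 6 and conc 8 wells reached 25.2% and 25.8%, with totals of 127186 to 212621 and 104003 to 126822 counts. All 3 conc 1 wells lay above every other well, and their totals were within those of the solvent wells. Genes that the filter admitted through high conc 1 wells are part of these shares, to an extent that was not tested.

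**Figure D4:**
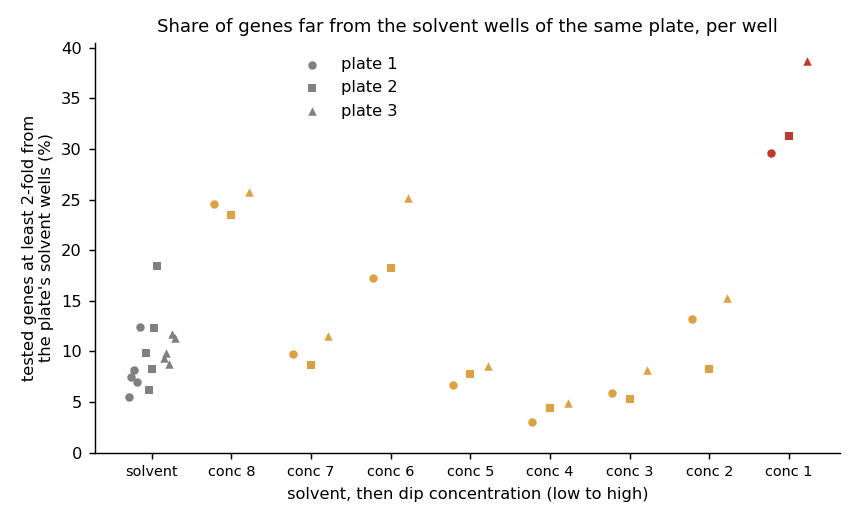
Percentage of the 4436 tested genes at least 2-fold from the plate's solvent wells, for each solvent well (against the other solvent wells of its plate) and each dip well from conc 8 (lowest) to conc 1 (highest); marker shape is the plate. The conc 1 wells hold 29.6% to 38.7%, above all others, and the wells of conc 8 (23.5% to 25.8%) and 1 conc 6 well (25.2%) come next.

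The shares of genes called in each direction differed with abundance. Among the most abundant of 5 equal groups of the tested genes, with at least 87.0 mean CPM, 46.3% fell and 19.4% rose. In the least abundant group, with at most 19.7 mean CPM, 6.53% fell and 16.9% rose. The filter on low counts keeps a gene of such low mean only where a few wells are high, as the conc 1 wells are for risen genes. A fallen gene can pass it only through other wells. The 2 shares of this group are therefore partly fixed by the filter and are not comparable with those of the top group. The filter can shape the shares of the next groups up in the same way, to an extent that was not tested. With library totals these shares were 35.1% fallen and 27.5% risen in the top group and 3.60% and 25.3% in the bottom one, and with DESeq2 42.3% fell and 22.7% rose in the top group. The median SE of the log2 fold change was 0.58 in the bottom and 0.21 in the top group, so smaller changes could be called among abundant genes. The median change of the called genes was larger where counts were low, 1.62 and -2.52 for risen and fallen genes in the bottom group, against 0.81 and -1.22 in the top one.

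**Figure D5:**
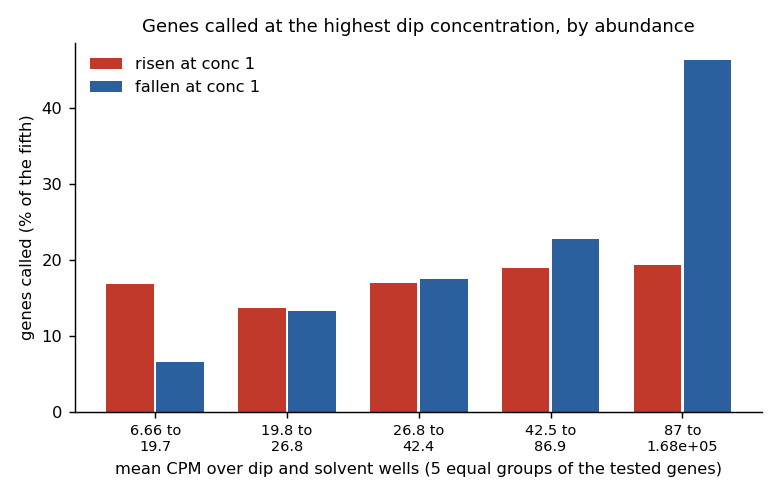
Percentage of genes risen and fallen at conc 1 in each of 5 equal groups of the 4436 tested genes by mean CPM over dip and solvent wells. The share of risen genes is 13.6% to 19.4% in all 5 groups, and that of fallen genes is 46.3% in the most abundant one. The filter on low counts partly fixes the shares in the least abundant group and can shape those of the next groups up.

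As shares of all counts, the risen genes held 15.6% to 17.0% in the conc 1 wells and 5.39% to 8.18% in the solvent wells, and the fallen genes 51.6% to 52.7% and 64.1% to 76.8%. The genes were chosen by this contrast, so these shares are a description. At conc 2, the risen genes held 7.36% to 8.77% and the fallen ones 60.8% to 68.6%. Most of the share of the fallen genes was that of only 4 IDs, the most counted ones. These 4 held 41.4% to 43.0% in the conc 1 wells and 41.6% to 59.5% in the solvent wells.

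The fallen genes included the 4 most counted IDs, which form pairs of almost equal counts (within 2% of the summed count), so how reads were shared within a pair is uncertain. They are the only tested IDs with such a partner. Their log2 fold changes against solvent were -0.52 to -0.38 (adjusted p = 0.00742 to 0.0491 in edgeR). They were lower by more at conc 8, the lowest concentration, with -0.79 to -0.75 (adjusted p = 0.00739 to 0.0105 in edgeR), and were -0.41 to -0.36 at conc 3 (adjusted p = 0.771 to 0.904 in edgeR). Against conc 2 in the same libraries they were -0.24 to -0.05 (adjusted p = 0.409 to 0.89 in edgeR). The call against solvent was lost for at least 1 of the 4 with DESeq2 (adjusted p up to 0.207), with only the groups compared (up to 0.0953), without replicate 1 (up to 0.0728) and without replicate 2 (up to 0.529 in edgeR), and for all 4 with library totals (adjusted p of 0.0574 to 0.733 in edgeR) and thinned wells (0.0631 to 0.331).

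At equal depth, with every well thinned to 158258 counts, the conc 1 wells had more genes detected and a flatter distribution than the solvent wells. They had 13911, 13782 and 13101 detected genes on plates 1, 2 and 3, against 9183 to 13342 in the solvent wells with a median of 11333. Only plate 3's conc 1 well lay within the solvent range, the upper end of which was a plate 1 well. The solvent wells of plates 2 and 3 had at most 11657 detected genes. The difference of 2193 genes had an adjusted p of 0.0147 in a two-sided exact permutation test over wells, adjusted over 4 well-level values. Without replicates 2 and 3 in turn the adjusted p was 0.0909 and 0.0808 in the exact permutation test, whose smallest unadjusted p is then 0.0152. In the same libraries, conc 2 wells had 14002, 12066 and 11339 detected genes and conc 3 wells 12941, 11170 and 10974. The well with the most genes on plate 1 was thus that of conc 2.

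The 100 most counted IDs of the wells took 57.4% ± 1.38 of the counts in conc 1 wells (SD, n = 3), and 60.7% to 74.6% with a mean of 65.5% in the 15 solvent wells (exact permutation test, adjusted p = 0.0147). The difference was -8.05 percentage points, and -4.67 without replicate 2, where the adjusted p of the exact permutation test was 0.0606, as it was without replicate 3. In the same libraries, the 100 IDs took 59.2%, 64.1% and 61.9% in the conc 2 wells of plates 1, 2 and 3 and 59.7%, 64.0% and 61.1% in the conc 3 wells. On plate 1, where conc 1 had 58.3%, the wells of both lower concentrations also lay below all solvent wells. The 4 most counted IDs took 41.9% ± 0.94 in conc 1 wells (SD, n = 3) and 48.5% ± 5.35 in solvent wells (SD, n = 15), which missed the threshold (exact permutation test, adjusted p = 0.0588). That difference was -6.56 percentage points, and -3.06 without replicate 2. These 4 IDs took 41.8%, 47.5% and 43.1% at conc 2 and 41.3%, 46.1% and 40.7% at conc 3. Both of these were lower than conc 1 on plate 1, where conc 1 had 43.0%. Conc 3 was also lower on plate 3, where conc 1 had 41.3%. When wells changed places only within a plate, detected genes and both shares had an adjusted p of 0.00617 from the smallest p that exact permutation allows, 0.00463. Total counts did not pass the test (p = 0.781, exact permutation test).

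Few IDs were switched on or off outright at this depth. Of 4336 IDs counted in every solvent well, 12 had 0 counts in all conc 1 wells, against 0 such IDs at conc 2 and 0 at conc 3. These 12 IDs had 7.12 to 41.9 CPM over the pooled solvent wells, and 5 of them were among the tested genes. For an ID named in advance, 0 of the 899050 counts at conc 1 would allow up to 3.34 CPM. That is 3 counts over the group, with counting error only. The 12 IDs were picked out of 4336 for their 0 counts, so that limit does not bound their fold changes. They had 4 to 43 counts over the conc 2 wells. A further limit of 3 or fewer counts over the 3 wells was met by 116 of the 4336 IDs at conc 1, 39 at conc 2 and 7 at conc 3, with 797611 and 1197181 counts in all at conc 2 and conc 3. Of 11740 IDs at 0 in all solvent wells, 13 were counted in every conc 1 well, with 1 to 7 counts a well, and 2 in every well of conc 2 and of conc 3.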

How the data were processed

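RNA of single wells was tagged, pooled by library and sequenced with a QIAseq UPXome kit, per the labels. The authors deposited counts, whole numbers for each well and Ensembl ID that were not normalized as far as the values tell. No aligner, counter or strand setting is named in the sources used here. Tables of dip, dic and mbz were read, with 87 wells in all. The rule on low totals dropped 1 well, which was neither a dip nor a solvent nor a conc 1 well.

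EdgeR 4.0.16 (quasi-likelihood, TMM scaling, filterByExpr, R 4.3.3) was fitted to 24 dip and 15 solvent wells, and a separate fit compared dip with dic and mbz. Calls had a Benjamini-Hochberg adjusted p below 0.05, two-sided. Each SE was the absolute log2 fold change over the square root of the test's F statistic, so it derives from the test itself. Log2 ratios per plate used a prior count of 2. Python 3.11.15, pandas 2.3.3, numpy 2.4.6, scipy 1.17.1 and matplotlib 3.10.9 did the rest. The 15 solvent wells were 5 on each of 3 plates. Main fits and the permutation test over all wells took them as separate wells. The p-values therefore measure a spread that lies partly within the 3 passages and partly between them.

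Named IDs had to be called at conc 1, change at least 2-fold and the same way on each plate, and have all conc 1 wells beyond all solvent wells. The 2 risen and 2 fallen IDs of smallest p were taken, because the files do not pair the IDs with names. Planned gene lists were not used for the same reason. Members, lists and tests were chosen with earlier results of these data known.

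The labels give 1 passage per plate, so plate number pairs wells. Around the group means, wells of the same plate had a median correlation of 0.080 and wells of different plates one of -0.035. It was 0.069, 0.096 and 0.076 between conc 1 and solvent wells of plates 1, 2 and 3. No pair of wells agreed within sampling noise (lowest chi-square per degree of freedom 1.82 in 135 pairs). Alternatives were DESeq2 1.42.0, other filters, the plate block, each plate left out, fewer groups, the 4 most counted IDs removed, thinned wells and summed solvent wells. Library totals without TMM were added after seeing the data.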

Additional observations from a re-analysis of the deposited data

How the results depend on the processing

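For dip conc 1 against solvent, the main fit called 1706 of 4436 tested genes, and the number tested differed between settings. Without a filter, the count was 1516 of 37227 tested genes, and 1115 of the 1706 main calls were among them. With library totals, the count was 1800 of 4436, and 1424 of the 1706 main calls were among them. With at least 10 counts in every well of 1 group, the count was 1011 of 1683 tested genes. With wells thinned to 104003 counts, it was 408 of 1868. With 1 replicate left out, it was 1047 to 1415, with 4494 to 5242 genes tested. With the solvent wells summed per plate it was 1406 of 4672. Against conc 2, it was 546 of 37227 without a filter and 200 of 1868 with thinned wells. It was 587 to 802 with 1 replicate left out. Against dic and mbz, it was 327 of 1812 with thinned wells and 808 to 1201 with 1 replicate left out. For conc 2 and conc 3 against solvent and against each other, 37227 genes were tested without a filter and 1868 with thinned wells. The strict filter tested 1371 genes for conc 2 against solvent and 2247 for conc 2 against conc 3. At conc 2 against solvent, 4 genes became 7 with DESeq2, 21 without a filter, 10 with the strict filter, 21 with the replicate block, 0 with thinned wells and 7 with library totals, and 3 to 6 with 1 replicate left out. At conc 3, 10 genes became 17 without a filter, 19 with the block, 4 with thinned wells and 6 to 9 with 1 replicate left out. For conc 2 against conc 3, 2 genes became 10 without a filter, 4 with the strict filter, 12 with the block, 5 with only the groups compared and 0 to 4 with 1 replicate left out. The difference in detected genes was 2057 without thinning (exact permutation test, adjusted p = 0.141) and 1463 to 2721 with 1 replicate left out. That of the 100 most counted IDs was -9.81 to -4.67 percentage points with 1 replicate left out, and that of the 4 most counted IDs passed the threshold at -6.56 with wells exchanged within plates. The causes were not tested, beyond fewer genes and counts where wells were thinned. The block moved no other count by over 1.5 times. The 4 named IDs each kept their direction and call in all 12 refits with another setting. They were named for the smallest p-values in the same wells, which largely fixed that outcome, so it is no separate check. No well of these fits was dropped, so keeping dropped wells was not run. Concentration coincides with plate row, dip and solvent wells lie in different libraries, and n is 3.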
